A study of Mus musculus with 8 samples.

Results

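The genes described here are 50 genes that act in G2, mitosis or cytokinesis, named by symbol and read in a table of raw counts for 52459 gene symbols. All 50 were found and all 50 passed the filter on low counts in each of 4 comparisons. They were grouped by role into mitotic entry (10 genes), spindle checkpoint (5), kinetochore (6), anaphase (4), the chromosomal passenger complex (3), spindle (8), chromosome structure (7) and cytokinesis (7).

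RNA was sequenced from murine leukaemia cells driven by AE9a, a truncated form of the AML1-ETO fusion protein that causes acute myeloid leukaemia in mice. All 8 libraries carried the genotype written RTA shTet2: cKit+ marrow of C57BL/6J mice had received a retrovirus with AE9a and a hairpin against Tet2 that doxycycline (DOX) switches on. Each library came from AE9a+ spleen cells of 1 moribund C57BL/6J recipient, lethally irradiated at 6 to 8 weeks of age and given 50000 leukaemia cells together with 500000 wild-type support marrow cells, so that recipients also held normal blood cells. The study set ascorbate, and separately the release of the hairpin, against sustained knockdown.

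The reference group was made up of mice 16, 17 and 19, which were secondary recipients kept on DOX (Tet2 knockdown) and given PBS. Mice 21 and 23 were secondary recipients without DOX, given PBS and labelled Tet2-restored. Mice 28 and 30 were secondary recipients on DOX, given ascorbate (ASC). Mouse 12 was the only primary recipient, on DOX. Leaving out DOX and releasing Tet2 coincide in mice 21 and 23, so the effects of these cannot be told apart. The dose and schedule of ascorbate, the sorting markers and the primary leukaemia from which each secondary recipient was seeded are not given in the sources used here.

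During G2, cyclin B and CDK1 are held inactive until CDC25 phosphatases and the kinases PLK1 and Aurora A switch them on. Chromosomes are then condensed and attached to spindle microtubules, the spindle checkpoint holds anaphase back until every kinetochore is attached, and the anaphase-promoting complex (APC/C) destroys securin and cyclin B so that the cell can divide. Most of these genes are transcribed late in the cell cycle, when the MuvB core joins B-MYB and FOXM1 at a promoter element called the cell cycle genes homology region (CHR), often with NF-Y at nearby CCAAT boxes. In bulk RNA from a cell population, fewer cells in G2 and M and less RNA per dividing cell cannot be told apart.

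The promoters of the genes share these sequence features. RefSeq (GRCm38.p6) gave the window from 250 bases before to 50 bases after the start for 42 of the 50 genes, and both strands were searched. A CHR, spelled TTTGAA or TTTAAA, lay in 34 of the 42 windows (81.0%) against 27.8% of 27025 promoters of all genes, and TTTGAA alone in 73.8% against 18.1%. CCAAT, which reads ATTGG on the other strand, lay in 31 (73.8%) against 37.9%, and both elements in 28 (66.7%) against 10.9%. Within 75 bases before and 50 after the start, a CHR was found in 30 of 42 (71.4%) against 10.3% of all promoters. TTTAAA reads the same on both strands, TTTGAA reads TTCAAA on the other strand, and a CHR and a CCAAT box can share a single base. A match is a stretch of letters, not a shown binding site. Promoters of 31 genes of G1/S and DNA replication held CCAAT in 67.7% and a CHR in 22.6%. The stretch upstream of the start is shown for 4 genes that hold both elements there. Of 12 such genes described by value, 7 were left out because the stretch shares bases with an annotated GENCODE exon, and of the other 5 those with the 2 lowest and the 2 highest log2 fold changes off DOX are shown. Capitals mark CHR and CCAAT letters on either strand, and each stretch is written 5′ to 3′ in the direction of the gene. Smc2 lies at chr4:52439071-52439220 on the plus strand, Top2a at chr11:99024190-99024421 on the minus strand, Mki67 at chr7:135716380-135716572 on the minus strand and Ccnb2 at chr9:70421555-70421726 on the minus strand.
Smc2: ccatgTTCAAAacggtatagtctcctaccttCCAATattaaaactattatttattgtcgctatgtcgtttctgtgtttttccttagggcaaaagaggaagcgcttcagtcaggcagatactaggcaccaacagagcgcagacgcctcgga
Top2a: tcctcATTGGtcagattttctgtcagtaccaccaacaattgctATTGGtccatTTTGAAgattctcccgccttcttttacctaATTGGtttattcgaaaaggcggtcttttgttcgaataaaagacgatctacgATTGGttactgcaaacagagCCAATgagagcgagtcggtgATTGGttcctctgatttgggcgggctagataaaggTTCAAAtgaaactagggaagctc
Mki67: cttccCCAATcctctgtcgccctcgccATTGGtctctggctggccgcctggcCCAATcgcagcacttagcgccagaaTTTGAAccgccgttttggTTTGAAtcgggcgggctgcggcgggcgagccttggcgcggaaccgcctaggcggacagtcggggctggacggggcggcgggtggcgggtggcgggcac
Ccnb2: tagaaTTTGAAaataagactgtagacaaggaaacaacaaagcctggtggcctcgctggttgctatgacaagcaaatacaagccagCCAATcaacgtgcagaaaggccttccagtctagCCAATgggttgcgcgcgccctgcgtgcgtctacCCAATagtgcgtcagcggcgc
Smc2, Top2a and Mki67 had values below 0 off DOX, and Ccnb2 had a value above 0. That all 4 carry CHR and CCAAT letters follows from how they were chosen and is not a result.

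Library depth ran from 18.1 to 34.2 M counts. Tet2 was at 12.6, 12.8 and 13.4 CPM (counts per M counts of the library, scaled by TMM factors) in mice 16, 17 and 19, at 14.1 and 23.1 CPM in mice 21 and 23, at 13.8 and 11.7 CPM in mice 28 and 30, and at 9.26 CPM in mouse 12, so that mouse 21 stood close to the knockdown mice. Mitochondrial transcripts took 9.09% to 11.4% of counts in the reference mice, 9.49% and 14.5% off DOX, 17.1% and 9.73% with ascorbate and 5.16% in mouse 12, with the high values in mice 23 and 28. Of 8 markers of leukaemic progenitors, Mpo was at 6.33 CPM or less in every library. Elane, Cebpa and Ctsg were at 0.653 CPM or less. Prtn3 was at 1.19 to 8.79 CPM and Cd34 at 0 to 19.8 CPM. Kit was at 54.4 to 206 CPM and Myb at 180 to 452 CPM. The labelled myeloid identity is thus only partly borne out by these markers. The summed CPM of 10 macrophage markers was 39.2 to 71.6 in the reference mice and 10.5 to 26.0 in the other 5, and that of 7 mast cell and basophil markers was 457 to 595 in the reference mice and 763 to 1386 in the other 5. Sums for 12 erythroid markers overlapped between the reference mice (5920 to 13397) and the other secondary mice (6086 to 11573). Most of each sum came from Hbb-bs (3518 to 9370 CPM in the secondary mice). Taken singly, 10 of the 12 had log2 fold changes below 0 off DOX (median -0.56), where 50.2% of all genes did. With ascorbate it was also 10 of the 12 (median -0.52), where 51% of all genes did. The 6 B cell markers summed to 11.2 to 80.9, 8 neutrophil markers to 1.18 to 44.2, and 6 T and NK cell markers to under 2 CPM. No listed marker was at 0 in all libraries. The part of these differences in the results was not tested.

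Under sustained knockdown, the deposited FPKM values, which are scaled by gene length, put Cdc25b (149.9 ± 17.1 FPKM, SD, n = 3), Mki67 (125 ± 22.1 FPKM), Ccna2 (116 ± 17.2 FPKM) and Ccnb2 (107 ± 6.54 FPKM) at the top of the 50 genes. Cdc25b encodes a phosphatase that activates CDK1, Mki67 the Ki-67 protein that coats mitotic chromosomes, and Ccna2 and Ccnb2 the cyclins A2 and B2. Mki67 and Ccna2 differed by less than their SDs. Ccna2 and Ccnb2 differed by less than the SD of Ccna2 but by more than that of Ccnb2. Cdk1 stood at 26.2 ± 1.30 FPKM and Ccnb1 at 13.9 ± 2.48 FPKM. Anln (7.79 ± 1.88 FPKM), Cenpf (7.78 ± 1.90 FPKM) and Cks2 (1.55 ± 0.217 FPKM) were lowest. Cks2, a small CDK1 subunit, rested on 14 to 35 counts per library.

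The median of the 50 genes was taken relative to the mean log2 CPM of the 3 reference mice. It stood at 0.11, -0.12 and 0.03 in mice 16, 17 and 19, and at -0.11 and -0.65 in mice 21 and 23. In mice 28 and 30 it stood at -0.53 and -0.14, and in mouse 12 at 0.25. Mice 23 and 28, 1 from each treated arm, were therefore low, while their partners lay at the level of mouse 17. Of the 50 genes, 46 were below the reference mean in mouse 23 and 48 in mouse 28, against 30 in mouse 21 and 34 in mouse 30. Over all 13024 genes, 6600 were below it in mouse 23, 6533 in mouse 28, 6292 in mouse 21 and 6439 in mouse 30. Among the 7 secondary mice, mouse 23 was lowest for 36 genes and mouse 28 for 10, and the knockdown mouse 16 was highest for 28. How often these mice were lowest or highest over all genes was not computed. The counts of all 50 genes together made up 0.862% to 1.04% of all counts in the reference mice, 0.874% and 0.564% off DOX, 0.591% and 0.839% with ascorbate and 1.11% in mouse 12. The same mice, 23 and 28, had the high mitochondrial shares given above, and the part of RNA quality in these values was not tested.

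**Figure D1:**
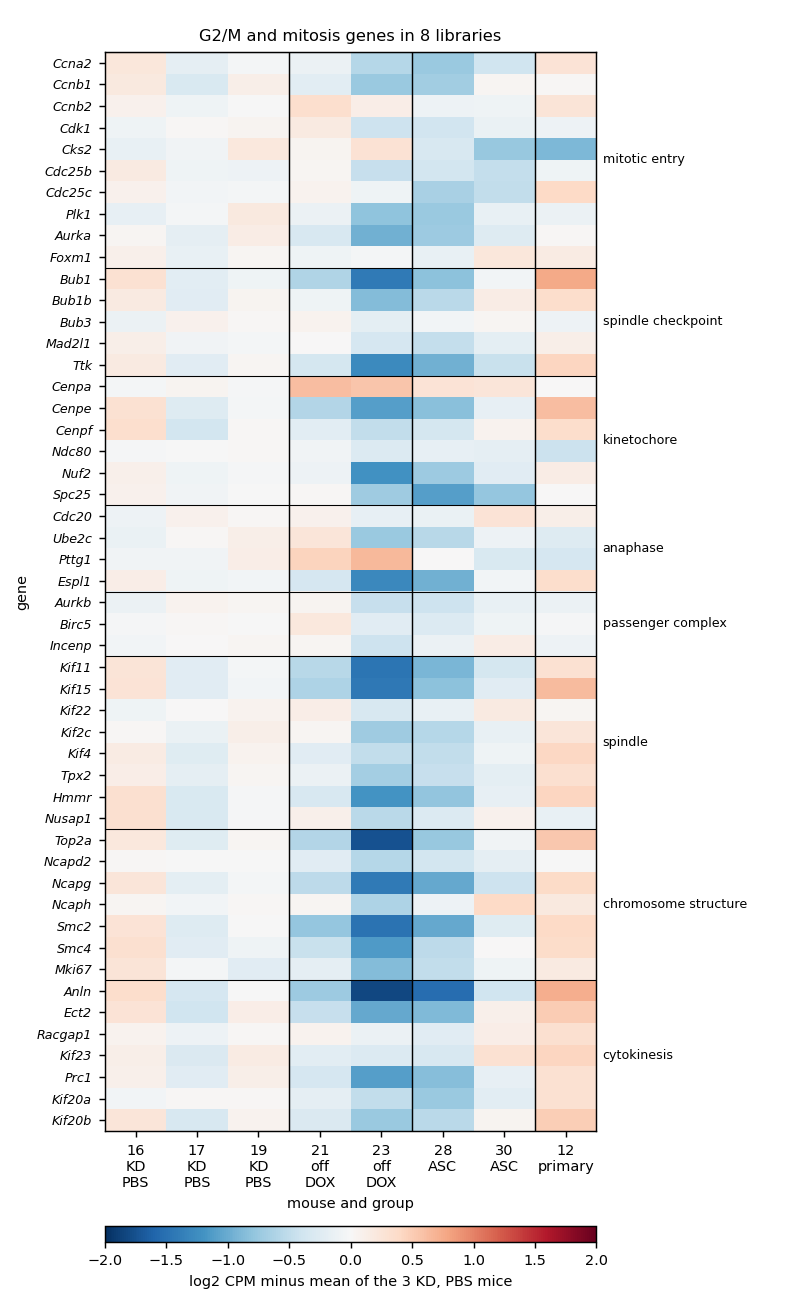
Heat map of the 50 genes (rows, by role) in 8 libraries (columns, by group and mouse), coloured by log2 CPM minus the mean of the 3 PBS knockdown mice. Mice 23 and 28 are mostly blue, with 46 and 48 of 50 genes below the knockdown mean, and the primary mouse 12 is mostly red, with 13 below it. Over all 13024 genes, 6600, 6533 and 6407 were below it in mice 23, 28 and 12.

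**Figure D2:**
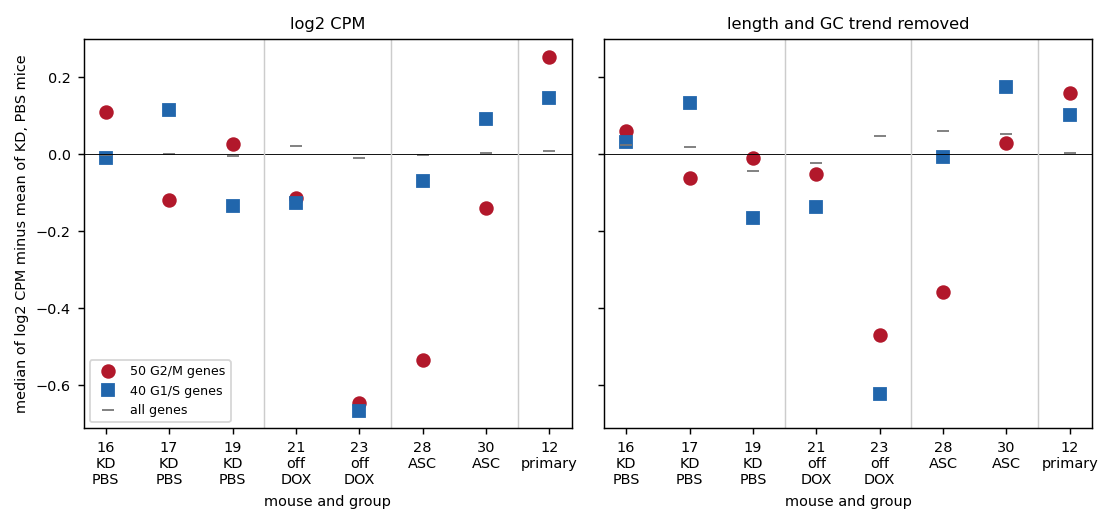
Median over genes of log2 CPM minus the mean of the PBS knockdown mice, by mouse, for the 50 G2/M and mitosis genes (circles), 40 genes of G1/S and replication (squares) and all genes (dashes), without correction (left) and with length and GC trends removed (right). On the left, for the G2/M and mitosis genes mouse 23 stands at -0.65 and mouse 28 at -0.53 (-0.47 and -0.36 on the right), and for the G1/S genes at -0.67 and -0.07.

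Off DOX against sustained knockdown (mice 21 and 23 against 16, 17 and 19), 0 of the 50 genes passed the quasi-likelihood test of edgeR at an adjusted p of 0.05, as did 0 of all 12137 genes tested (0%). At an unadjusted p under 0.05, 16 were lower and 2 higher, beside a background of 15.2% and 14.1% of all genes. Both mice lay below all 3 knockdown mice for 19 of the 50 genes and above them for 3, beside 24.5% and 24.9% of all genes. The median log2 fold change was -0.35 and 45 of the 50 values were below 0, where the median of all genes was -0.002 and 50.2% were below 0. With DESeq2 size factors in edgeR, Cenpa alone was called, higher (1.6% of all genes lower and 1.43% higher). DESeq2 called 10 of the 50 lower and 2 higher (9.39% and 6.48% of all genes), and limma with voom or on FPKM called 0. Without the low-count filter edgeR called 16 lower and 1 higher. The background there was 5.61% and 4.1% of 22734 genes, which include the low-count genes and so are unlike the 50. Mouse 23 carried much of this: without mouse 21 the median was -0.64 and 14 genes were called lower and Cenpa higher (6.97% and 6.29% of all genes), and without mouse 23 the median was -0.13, 31 values were below 0 and 0 genes were called. The 14 were Anln, Aurka, Bub1, Espl1, Hmmr, Kif11, Kif15, Ncapg, Nuf2, Prc1, Smc2, Smc4, Top2a and Ttk. Off DOX the value without mouse 23 was -0.63 for Bub1, -0.37 for Ttk, -0.34 for Aurka, -0.34 for Espl1, -0.54 for Ncapg and -0.48 for Smc4.

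With ascorbate against PBS under knockdown (mice 28 and 30 against the same 3 knockdown mice), 0 of the 50 genes passed in edgeR, where 2.86% of all 12137 genes did. At an unadjusted p under 0.05, 7 were lower and 0 higher, beside 12.9% and 10.7% of all genes. Both ascorbate mice lay below the 3 knockdown mice for 21 of the 50 genes and above them for 1, beside 23.5% and 22.4% of all genes. The median was -0.33 with 43 values below 0, where the median of all genes was -0.01 and 51% were below 0. Spc25 alone was called, lower, by DESeq2 (7.45% of all genes lower and 4.42% higher) and by limma-voom (4.66% and 3.67%). The same held for edgeR on the groups compared only (4.22% and 3%), without mouse 21 (3.73% and 2.51%) and without mouse 23 (3.69% and 2.31%). Limma on FPKM called 0, and edgeR without the low-count filter called 7 lower and 0 higher (4.08% and 2.51% of 22734 genes, low-count genes included). Without mouse 28 the median was -0.14 with 35 values below 0, and without mouse 30 it was -0.57 with 49 below 0. With a library offset that removed trends with gene length and GC content, it was -0.13. Scaling by library totals moved the median of all genes to -0.12 and that of the 50 genes to -0.43, a difference of -0.31 between them. These values share their 3 control mice with those off DOX.

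**Figure D3:**
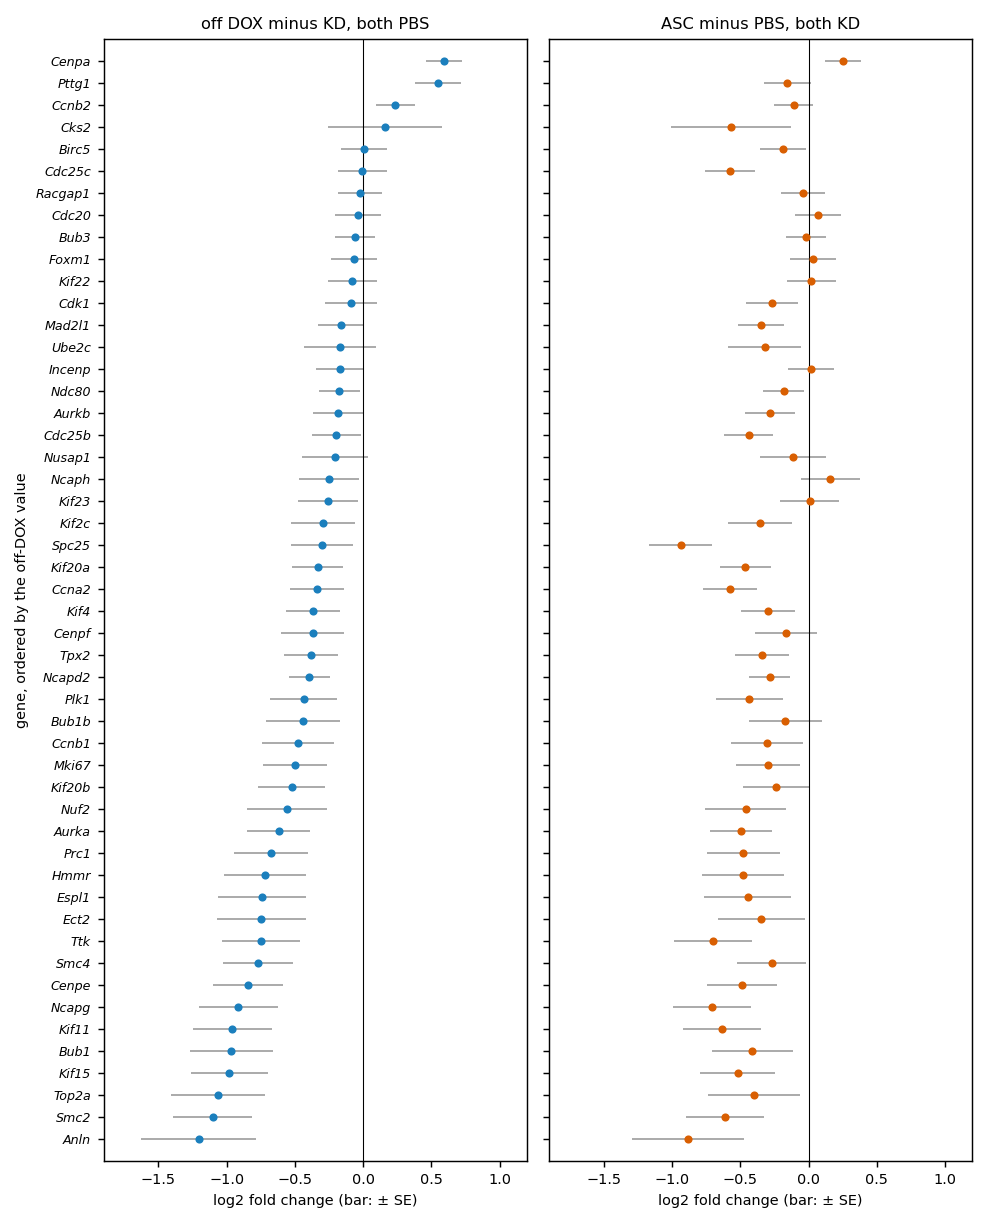
Log2 fold change (point) and its standard error (bar) of each of the 50 genes off DOX against PBS knockdown (left) and with ascorbate against PBS knockdown (right), from edgeR, ordered by the value off DOX. Cenpa (0.59) and Pttg1 (0.55) lie at the top and Smc2 (-1.10) and Anln (-1.21) at the bottom of the left panel, and Spc25 (-0.94) is lowest on the right.

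Among the 10 genes of mitotic entry, 8 values were below 0 off DOX (median -0.14) and 9 with ascorbate (median -0.43). Both ascorbate mice lay below all knockdown mice for 7 of the 10 (23.5% of all genes), and both off-DOX mice for 1 of the 10 (24.5% of all genes), and the difference between the arms in this count was not tested. Ccna2, the cyclin that drives cells through S and G2, was at 551, 416 and 459 CPM in mice 16, 17 and 19, at 437 and 318 CPM off DOX, at 282 and 359 CPM with ascorbate and at 569 CPM in mouse 12. Its ascorbate values lay below all knockdown values, with a log2 fold change of -0.58 (SE 0.20, edgeR adjusted p 0.126), against -0.34 (SE 0.20, adjusted p 0.278) off DOX. Of its exonic length, 12.5% is shared with Exosc9, and as the strand setting of the counting is not given, reads there cannot be assigned. Cdc25c, a phosphatase that activates CDK1 at mitotic entry, was at 23.6, 21.6 and 21.8 CPM under knockdown, at 23.5 and 21.0 CPM off DOX, at 14.3 and 15.8 CPM with ascorbate and at 29.4 CPM in mouse 12. It had the lowest value of the entry genes with ascorbate, -0.58 (SE 0.18, edgeR adjusted p 0.108), and a value of -0.01 (SE 0.18) off DOX, where the groups overlapped.

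The partners of CDK1 differed from each other. Cdk1 itself was at 123, 133 and 136 CPM under knockdown, at 148 and 98.0 CPM off DOX, at 99.7 and 118 CPM with ascorbate and at 121 CPM in mouse 12. The off-DOX mice lay on either side of the knockdown mice, and the log2 fold changes were -0.09 (SE 0.19) off DOX and -0.27 (SE 0.19) with ascorbate. Ccnb1, the main mitotic cyclin, was at 66.9, 47.4 and 63.2 CPM under knockdown, at 50.3 and 35.0 CPM off DOX, at 36.3 and 60.0 CPM with ascorbate and at 59.3 CPM in mouse 12, with overlapping groups and values of -0.47 (SE 0.26) and -0.31 (SE 0.26). Ccnb2, a second B-type cyclin, was at 174, 155 and 164 CPM under knockdown, at 208 and 180.4 CPM off DOX, at 153 and 155 CPM with ascorbate and at 197 CPM in mouse 12. It was the entry gene with the highest value off DOX, 0.23 (SE 0.14, edgeR adjusted p 0.291), and both off-DOX mice lay above all knockdown mice. Cks2 counted 24, 25 and 35 reads under knockdown, 27 and 26 off DOX, 14 and 15 with ascorbate and 20 in mouse 12, and at this depth its values of 0.16 (SE 0.42) off DOX and -0.57 (SE 0.44) with ascorbate had wide errors.

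The mitotic kinases were low in mice 23 and 28. Aurka, which encodes Aurora A at the centrosomes, was at 99.4, 85.3 and 107 CPM under knockdown, at 77.2 and 49.6 CPM off DOX, at 58.4 and 80.6 CPM with ascorbate and at 98.6 CPM in mouse 12. All 4 treated mice lay below the knockdown mice, with values of -0.62 (SE 0.23, edgeR adjusted p 0.115) off DOX and -0.49 (SE 0.23, adjusted p 0.226) with ascorbate. Plk1, the kinase that promotes entry and later steps of mitosis, was at 118, 129 and 152 CPM under knockdown, at 122 and 75.5 CPM off DOX, at 79.0 and 119 CPM with ascorbate and at 122 CPM in mouse 12. Its log2 fold change was -0.43 (SE 0.24) in both arms, and the groups overlapped. Foxm1, the transcription factor of this gene class, was at 85.8, 72.4 and 82.1 CPM under knockdown, at 75.6 and 77.7 CPM off DOX, at 71.8 and 93.3 CPM with ascorbate and at 89.5 CPM in mouse 12. Foxm1 was near the knockdown level in both arms, -0.07 (SE 0.17) and 0.03 (SE 0.17), and was not low in mouse 23. Cdc25b had values of -0.20 (SE 0.18) and -0.44 (SE 0.18).

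All 5 spindle checkpoint genes had values below 0 in both arms, with medians of -0.44 off DOX and -0.35 with ascorbate. With the length and GC offset 3 of the 5 were below 0 in each arm, with medians of -0.35 and -0.03. Bub1, a checkpoint kinase at kinetochores, was at 89.1, 62.9 and 67.9 CPM under knockdown, at 47.8 and 27.3 CPM off DOX, at 41.1 and 69.7 CPM with ascorbate and at 123 CPM in mouse 12. Both off-DOX mice lay below all knockdown mice and mouse 12 above them, with values of -0.97 (SE 0.30, edgeR adjusted p 0.0832) off DOX and -0.41 (SE 0.30) with ascorbate. Ttk, the kinase MPS1 that starts the checkpoint signal, was at 54.4, 41.0 and 49.6 CPM under knockdown, at 37.7 and 19.9 CPM off DOX, at 24.6 and 35.2 CPM with ascorbate and at 64.4 CPM in mouse 12. It was below the knockdown mice in all 4 treated mice, with -0.75 (SE 0.28, edgeR adjusted p 0.121) and -0.70 (SE 0.28, adjusted p 0.176). Bub3, which docks the checkpoint kinases, had values nearest 0, -0.06 (SE 0.14) and -0.02 (SE 0.14), and Bub1b and Mad2l1 lay between, at -0.44 and -0.16 off DOX and at -0.17 and -0.35 with ascorbate.

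The 6 kinetochore genes held both the highest value off DOX and the lowest value with ascorbate. Cenpa encodes the histone H3 variant that marks the centromere, and its gene lies at chr5:30666777-30674830 (GRCm38, plus strand). It was at 93.2, 98.5 and 94.1 CPM under knockdown, at 147 and 141 CPM off DOX, at 115 and 113 CPM with ascorbate and at 95.4 CPM in mouse 12. The groups of secondary mice did not overlap, with means of 95.3 ± 2.86 (SD, n = 3), 144 ± 4.34 (n = 2) and 114 ± 1.40 CPM (n = 2), and mouse 12 lay within the knockdown range. The log2 fold change of Cenpa was 0.59 off DOX (SE 0.13, edgeR adjusted p 0.052), the smallest adjusted p of the 50 genes there, and 0.25 with ascorbate (SE 0.13, adjusted p 0.283). It was called higher off DOX by DESeq2 (adjusted p 0.00837), with DESeq2 size factors in edgeR, without the low-count filter and without mouse 21, while the adjusted p ran from 0.00837 to 0.313 over all alternatives, highest without mouse 23.

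Spc25 and Ndc80 encode subunits of the NDC80 complex, which holds microtubules at the kinetochore. Spc25 (chr2:69193895-69206194, minus strand) was at 49.2, 44.3 and 46.1 CPM under knockdown, at 47.2 and 28.4 CPM off DOX, at 21.8 and 27.1 CPM with ascorbate and at 46.8 CPM in mouse 12. Both ascorbate mice lay below every other library, and the log2 fold change of -0.94 (SE 0.23) had an edgeR adjusted p of 0.0622, the smallest of the 50 genes in that comparison. The adjusted p ran from 0.000731 without the low-count filter to 0.314 without mouse 28, and Spc25 passed with DESeq2, with limma-voom, in the 2 groups alone and without mouse 21 or mouse 23. Ndc80 was at 62.1, 62.5 and 64.1 CPM under knockdown, at 59.7 and 51.8 CPM off DOX, at 56.3 and 55.4 CPM with ascorbate and at 46.5 CPM in mouse 12, all outside the narrow knockdown range but with values of -0.18 (SE 0.15) in both arms. Nuf2, which belongs to the same complex, had values of -0.56 (SE 0.30) and -0.46 (SE 0.29). Cenpe, a kinesin that moves chromosomes to the spindle equator, was at 143, 96.2 and 113 CPM under knockdown, at 76.8 and 54.0 CPM off DOX, at 65.1 and 103 CPM with ascorbate and at 178 CPM in mouse 12. It lay below the knockdown mice off DOX, at -0.84 (SE 0.26, edgeR adjusted p 0.08), and overlapped them with ascorbate, at -0.49 (SE 0.26). Cenpf was at -0.37 and -0.17.

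Of the 4 anaphase genes, 3 had values below 0 in each arm, with medians of -0.11 and -0.24. With the length and GC offset 3 of 4 were below 0 off DOX (median -0.35) and 4 of 4 with ascorbate (median -0.25). Pttg1 encodes securin, the inhibitor of the protease separase that APC/C destroys at anaphase, and lies at chr11:43420250-43426251 (minus strand). It was at 50.6, 50.7 and 58.2 CPM under knockdown, at 72.2 and 83.3 CPM off DOX, at 53.4 and 42.9 CPM with ascorbate and at 42.2 CPM in mouse 12. Both off-DOX mice lay above all other libraries, with a log2 fold change of 0.55 (SE 0.17, edgeR adjusted p 0.0797, DESeq2 adjusted p 0.049, and 0.049 to 0.361 over all alternatives). Espl1, which encodes separase itself, had values in the other direction, at 81.4, 70.4 and 72.0 CPM under knockdown, at 59.2 and 30.4 CPM off DOX, at 38.1 and 71.9 CPM with ascorbate and at 95.2 CPM in mouse 12. Its log2 fold changes were -0.74 (SE 0.32, edgeR adjusted p 0.166) and -0.45 (SE 0.32). Cdc20, the activator of APC/C, was at 126, 143 and 138 CPM under knockdown, at 143 and 121 CPM off DOX, at 123 and 163 CPM with ascorbate and at 147 CPM in mouse 12, with overlapping groups and values of -0.04 (SE 0.17) and 0.07 (SE 0.17). Ube2c, the ubiquitin-conjugating enzyme of APC/C, was at 221, 246 and 262 CPM under knockdown, at 288 and 144 CPM off DOX, at 165 and 225 CPM with ascorbate and at 203 CPM in mouse 12. The off-DOX mice lay on either side of the knockdown mice, at -0.17 (SE 0.26) and -0.32 (SE 0.26), and 22.8% of the exonic length of Ube2c is shared with Tnnc2.

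The chromosomal passenger complex corrects faulty attachments. Its 3 genes had medians of -0.17 off DOX and -0.19 with ascorbate, and of -0.30 and -0.07 with the length and GC offset. Aurkb, its kinase Aurora B, was at 116, 131 and 129 CPM under knockdown, at 130.03 and 90.3 CPM off DOX, at 93.8 and 113 CPM with ascorbate and at 116 CPM in mouse 12. Birc5, its subunit survivin, was at 101, 105 and 102 CPM under knockdown, at 119 and 87.4 CPM off DOX, at 85.0 and 96.4 CPM with ascorbate and at 101 CPM in mouse 12. The off-DOX mice lay on either side of the knockdown mice for Birc5 and overlapped them for Aurkb, and for both genes the ascorbate mice lay below them. Their log2 fold changes were -0.18 (SE 0.18) and 0.01 (SE 0.17) off DOX and -0.28 (SE 0.19) and -0.19 (SE 0.17) with ascorbate, and Incenp, the scaffold, stood at -0.17 and 0.02.

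**Figure D4:**
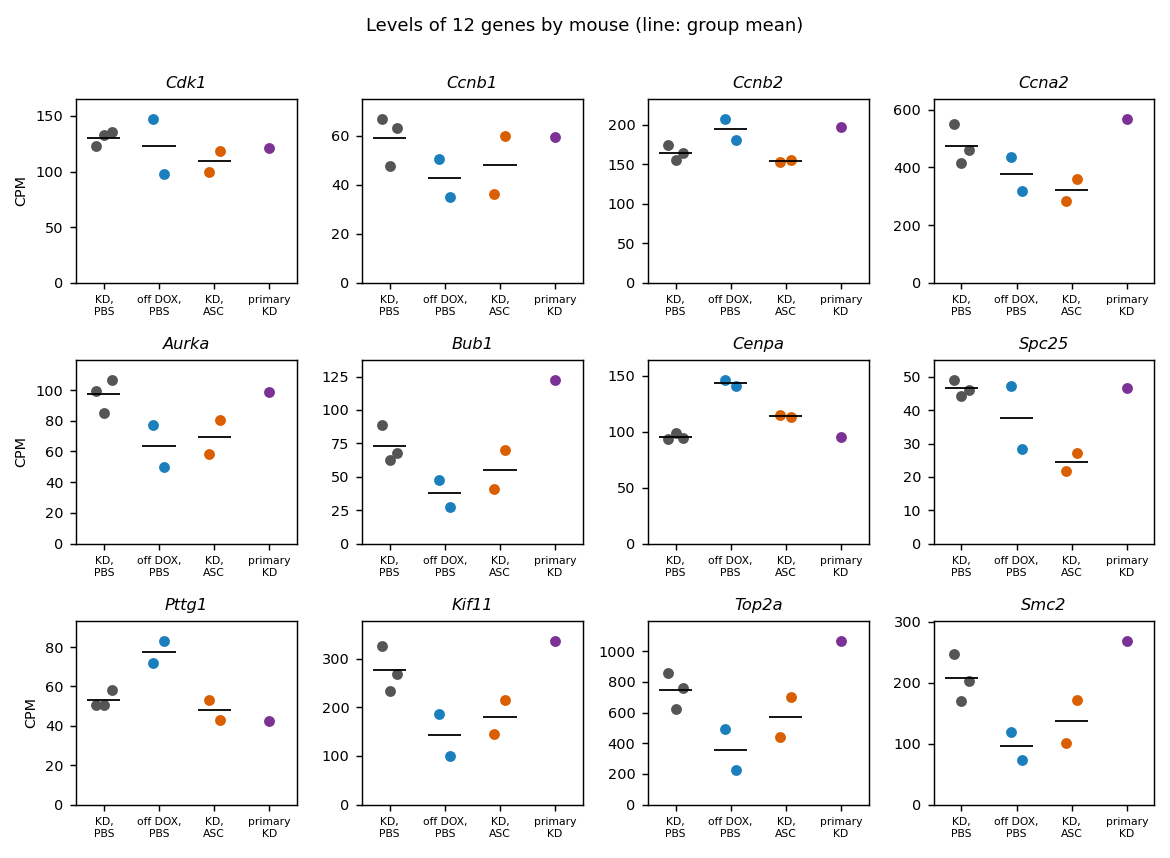
CPM (linear axis from 0) of 12 of the genes in each library, by group (KD, Tet2 knockdown on DOX), each point 1 mouse and each line a group mean. Cenpa has separate groups (95.3, 144 and 114 CPM on average in the secondary mice), and Top2a and Smc2 are lowest in mouse 23.

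All 8 spindle genes had values below 0 off DOX (median -0.37) and 7 of 8 with ascorbate (median -0.35). Under the length and GC offset these were 7 of 8 (median -0.24) and 6 of 8 (median -0.16). Kif11, the kinesin Eg5 that pushes spindle poles apart, was at 326, 234 and 268 CPM under knockdown, at 186 and 99.0 CPM off DOX, at 144 and 214 CPM with ascorbate and at 337 CPM in mouse 12. All 4 treated mice lay below the knockdown mice, with -0.96 (SE 0.29, edgeR adjusted p 0.0778) off DOX and -0.63 (SE 0.28, adjusted p 0.217) with ascorbate. Kif15, a kinesin that acts beside Kif11, was at 128, 90.5 and 102 CPM under knockdown, at 69.2 and 39.5 CPM off DOX, at 59.7 and 90.6 CPM with ascorbate and at 164 CPM in mouse 12. It had the lowest value of the spindle genes off DOX, -0.98 (SE 0.28, edgeR adjusted p 0.0703), and -0.52 (SE 0.28) with ascorbate. Off DOX, Kif15 stood at -1.43 without mouse 21, at -0.64 without mouse 23 and at -0.48 with length and GC removed by the offset, and Kif11 at -1.47 without mouse 21 and -0.58 without mouse 23. Hmmr, a microtubule-binding protein of the spindle poles, was the third spindle gene with off-DOX mice below all knockdown mice (-0.72, SE 0.30). Kif4, a chromosome-bound kinesin, was at 94.5, 70.7 and 88.4 CPM under knockdown, at 71.8 and 59.5 CPM off DOX, at 59.7 and 79.1 CPM with ascorbate and at 111 CPM in mouse 12, with overlapping groups of secondary mice. Kif22, a kinesin on chromosome arms, stood at -0.08 and 0.02, and Kif2c, Tpx2 and Nusap1 lay between -0.38 and -0.11 in both arms.

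The 7 genes of chromosome structure had the lowest median off DOX, -0.77, with 7 of 7 values below 0, while their median with ascorbate was -0.30. Both off-DOX mice lay below all knockdown mice for 5 of the 7, beside 24.5% of all genes. With the length and GC offset the medians were -0.42 off DOX and -0.09 with ascorbate. Smc2 (chr4:52439243-52488260, plus strand), an ATPase of the condensin complexes that compact chromosomes, was at 247, 170.4 and 203 CPM under knockdown, at 119 and 73.6 CPM off DOX, at 101 and 172 CPM with ascorbate and at 269 CPM in mouse 12. Both off-DOX mice lay below all knockdown mice, and Smc2 stood at -1.10 (SE 0.29, edgeR adjusted p 0.0644), against -0.61 (SE 0.28, adjusted p 0.229) with ascorbate. Without mouse 21 the value of Smc2 off DOX was -1.48 (adjusted p 0.0334), and without mouse 23 it was -0.80 (adjusted p 0.343). Top2a (chr11:98992943-99024189, minus strand), the topoisomerase that untangles sister chromatids, was at 857, 623 and 759.9 CPM under knockdown, at 495 and 222 CPM off DOX, at 438 and 704 CPM with ascorbate and at 1070.2 CPM in mouse 12. It was below all knockdown mice off DOX and overlapped them with ascorbate, with values of -1.06 (SE 0.34, edgeR adjusted p 0.0932) and -0.40 (SE 0.34, adjusted p 0.502). Without mouse 21 the Top2a value off DOX was -1.74 (adjusted p 0.0197), and without mouse 23 it was -0.60 (adjusted p 0.386).

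The remaining condensin genes and Mki67 were spread around these values. Smc4, the partner of Smc2, was at 559, 383 and 422 CPM under knockdown, at 329 and 206 CPM off DOX, at 311 and 449 CPM with ascorbate and at 579 CPM in mouse 12. Ncapg, a regulatory subunit of condensin I, was at 186, 138 and 153 CPM under knockdown, at 110.0 and 59.0 CPM off DOX, at 77.7 and 118 CPM with ascorbate and at 206 CPM in mouse 12. Off DOX both genes lay below all knockdown mice, at -0.77 (SE 0.26, edgeR adjusted p 0.092) for Smc4 and -0.91 (SE 0.29, edgeR adjusted p 0.0837) for Ncapg, and Ncapg did so with ascorbate as well, at -0.71 (SE 0.28, edgeR adjusted p 0.174). Ncapd2 and Ncaph, further condensin I subunits, stood at -0.39 and -0.25 off DOX and at -0.28 and 0.16 with ascorbate. Mki67, the usual marker of cycling cells, was at 1509.8, 1225 and 1075 CPM under knockdown, at 1114 and 689 CPM off DOX, at 897 and 1186 CPM with ascorbate and at 1419 CPM in mouse 12. Its groups overlapped, with values of -0.50 (SE 0.24, edgeR adjusted p 0.192) and -0.30 (SE 0.23, edgeR adjusted p 0.465).

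All 7 cytokinesis genes had values below 0 off DOX (median -0.52) and 6 of 7 with ascorbate (median -0.34). Under the length and GC offset these were 5 of 7 (median -0.28) and 4 of 7 (median -0.01). Anln (chr9:22332012-22389188, minus strand) encodes anillin, which organises the contractile ring, and was at 89.0, 55.3 and 69.1 CPM under knockdown, at 42.1 and 19.7 CPM off DOX, at 24.3 and 53.2 CPM with ascorbate and at 116 CPM in mouse 12. All 4 treated mice lay below the knockdown mice. The log2 fold changes of Anln were -1.21 off DOX (SE 0.42, edgeR adjusted p 0.107), the lowest of the 50 genes, and -0.88 with ascorbate (SE 0.41, edgeR adjusted p 0.235). Without mouse 21 the off-DOX value was -1.85 (adjusted p 0.0467) and without mouse 23 it was -0.77 (adjusted p 0.444). Kif20a, a kinesin of the central spindle, was at 109, 116 and 116 CPM under knockdown, at 99.6 and 80.6 CPM off DOX, at 67.8 and 97.6 CPM with ascorbate and at 139.8 CPM in mouse 12. It lay below the knockdown mice in all 4 treated mice, with -0.33 (SE 0.19) and -0.46 (SE 0.19, edgeR adjusted p 0.178), and shares 29.3% of its exonic length with Cdc23. Ect2, the RhoA activator, and Prc1, which bundles midzone microtubules, stood at -0.75 (SE 0.32) and -0.68 (SE 0.27) off DOX, while Racgap1, a partner of Ect2, stood at -0.03 (SE 0.16). Kif20b and Kif23 were at -0.52 and -0.26.

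The 2 arms were also compared directly. Off DOX against ascorbate, 0 of the 50 genes passed in edgeR, where 0.00824% of all genes (1 of 12137) did, and at an unadjusted p under 0.05 there were 4 higher and 0 lower, beside 8.85% and 7.35% of all genes. DESeq2 called Pttg1 higher (adjusted p 0.0482, with 2.23% of all genes called higher, 1.75% lower, and adjusted p up to 0.617 over all alternatives, highest without mouse 30), and limma with voom or on FPKM called 0. The off-DOX mice lay above both ascorbate mice for 6 of the 50 genes and below them for 0, beside 22.8% and 22.1% of all genes. These 6 were Ccnb2, Cks2, Cdc25c, Cenpa, Spc25 and Pttg1. Cks2 had the highest value, 0.72 (SE 0.48, edgeR adjusted p 0.483, on 14 to 27 counts a library), and after it came Pttg1 at 0.70 (SE 0.19, adjusted p 0.167), Spc25 at 0.63 (SE 0.25, adjusted p 0.26) and Cdc25c at 0.57 (SE 0.20, adjusted p 0.226). Ccnb2 and Cenpa both stood at 0.34 (SE 0.16, adjusted p 0.316, and SE 0.15, adjusted p 0.297). All 7 chromosome structure genes had the opposite sign (median -0.41), for example Top2a at -0.67 (SE 0.37, adjusted p 0.405) and Smc4 at -0.50 (SE 0.27, adjusted p 0.396), whereas the entry genes had a median of 0.21. Over the 50 genes the median was -0.10, and it ran from -0.37 without mouse 21 to 0.14 without mouse 30.

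The primary leukaemia of mouse 12 was set against the 3 secondary knockdown mice, which it matched in DOX but not in transplant round or PBS. No replicate exists for it, so its spread was taken from the other groups. In edgeR 0 of the 50 genes passed, where 0.115% of 13024 genes did, and 1 was lower and 0 higher at an unadjusted p under 0.05 (4.69% and 4.39% of all genes). DESeq2, limma-voom and limma on FPKM called 0. Mouse 12 lay above all 3 knockdown mice for 30 of the 50 genes and below them for 6, beside 31.8% and 29.7% of all genes, and the median was 0.25 against -0.01 for all genes. It lay above them for all 7 cytokinesis genes, which ran from 0.29 for Prc1 to 0.70 for Anln (median 0.42). With the length and GC offset these genes ran from 0.08 to 0.47 (median 0.22), and the median of the 50 genes was 0.16. Bub1 stood at 0.74 (SE 0.35, edgeR adjusted p 0.576), Kif15 at 0.61 (SE 0.33, adjusted p 0.627), Cenpe at 0.60 (SE 0.30, adjusted p 0.592) and Kif4 at 0.40 (SE 0.24, adjusted p 0.673). Mouse 12 lay below the knockdown mice for Cdk1, Cks2, Ndc80, Ube2c, Pttg1 and Incenp, and the gene with the smallest p was Ndc80 at -0.44 (SE 0.19, edgeR adjusted p 0.548).

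Values off DOX and in mouse 12 varied with gene length across the 50 genes, which had a median exonic length of 4911 bases, recovered from the ratio of counts to FPKM. Across the 50 genes, Spearman's rho between length and log2 fold change was -0.48 off DOX, -0.07 with ascorbate and 0.56 in mouse 12. Across all genes tested it was -0.38, -0.24 and 0.28 (genes share libraries and are not independent replicates). Off DOX the 25 longer genes had a median of -0.56 and the 25 shorter ones -0.21, with 24 and 21 values below 0. With the offset for length and GC content these medians were -0.30 and -0.24, rho was -0.01, the median of all 50 was -0.26 and 39 values were below 0. The offset gave a rho of 0.33 with ascorbate and 0.24 in mouse 12 across the 50 genes. For single genes the offset gave -0.75 for Smc2, -0.63 for Top2a, -0.75 for Anln, -0.43 for Cenpe, -0.45 for Ncapg and -0.42 for Smc4 off DOX, values nearer to 0, and 0.72 for Cenpa, -0.77 for Aurka and -0.72 for Plk1, values farther from 0. The roles differ in length, from a median of 2300.0 bases for the anaphase genes to 7080 bases for the cytokinesis genes. With the offset, role medians off DOX ran from -0.42 (chromosome structure) to -0.17 (mitotic entry). With ascorbate they ran from -0.42 (mitotic entry) to -0.01 (cytokinesis).

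**Figure D5:**
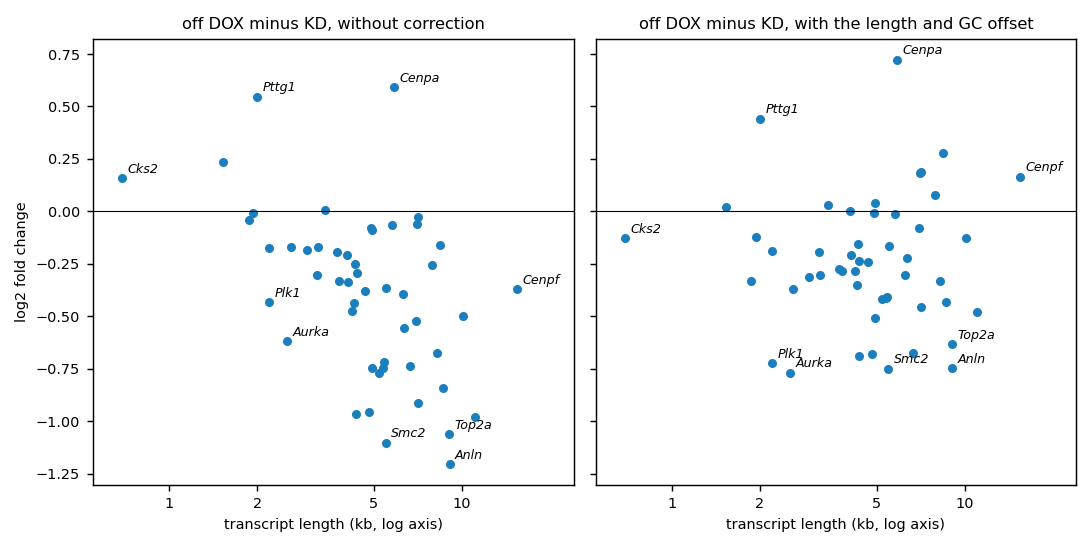
Log2 fold change of each of the 50 genes against its exonic length (log axis, kilobases) off DOX against PBS knockdown, without correction (left) and with the length and GC offset (right). Without correction rho across genes is -0.48, with Cenpa and Pttg1 above 0, and with the offset it is -0.01.

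Genes of the same pathway outside the list of 50 were read from lists of APC/C subunits, cohesin, further kinetochore proteins, spindle and centrosome proteins, condensin II, and the DREAM, MuvB, MYB and NF-Y regulators, 116 tested genes in all. Off DOX 0 passed in edgeR, with 37 lower and 5 higher at an unadjusted p under 0.05 (15.2% and 14.1% of all genes), 84 values below 0 and a median of -0.32. DESeq2 called 23 lower (9.39% of all genes) and 0 higher, and limma with voom or on FPKM called 0. Without mouse 21 edgeR called 20 lower and 1 higher (6.97% and 6.29% of all genes), with a median of -0.42. Without mouse 23 it called 0, with a median of -0.17 and 76 values below 0, and with the length and GC offset the median was -0.15. The 15 cohesin genes, which hold sister chromatids together, all had values below 0, with a median of -0.65. Pds5a, a cohesin regulator, stood at -1.24 (SE 0.26, edgeR adjusted p 0.0502), Ncapg2 of condensin II at -1.48 (SE 0.32, adjusted p 0.052) and Anapc1, the largest APC/C subunit, at -1.07 (SE 0.22, adjusted p 0.0502). With the offset these were -0.64 for Pds5a, -1.01 for Ncapg2 and -0.57 for Anapc1. The APC/C list had a median of -0.01, the kinetochore list -0.18, the spindle and centrosome list -0.28 and the list of regulators -0.46.

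With ascorbate, 3 of these 116 genes fell in edgeR and 0 rose, where 2.86% of all genes passed in either direction, so the count was near the background. The median was -0.12 with 77 values below 0, and it was -0.07 without mouse 28, -0.25 without mouse 30 and 0.03 with 54 values below 0 under the length and GC offset. Anapc10, the APC/C subunit that helps to bind substrates, was at 28.4, 30.3 and 28.7 CPM under knockdown, at 25.7 and 29.1 CPM off DOX and at 15.3 and 13.7 CPM with ascorbate, and fell by 1.02 on the log2 scale (SE 0.18, edgeR adjusted p 0.0298). Mis12, which links the centromere to the NDC80 complex, was at 76.6, 60.7 and 69.8 CPM under knockdown, at 44.1 and 41.6 CPM off DOX and at 42.9 and 37.9 CPM with ascorbate, and fell by 0.78 (SE 0.17, adjusted p 0.0448). Nfyb, a subunit of the CCAAT-binding factor NF-Y, was at 54.9, 59.7 and 60.96 CPM under knockdown, at 54.6 and 57.8 CPM off DOX and at 36.5 and 35.7 CPM with ascorbate, and fell by 0.71 (SE 0.15, adjusted p 0.0448). For these 3 genes both ascorbate mice lay below all knockdown mice. Nfya, which encodes another NF-Y subunit, stood at -0.98 (SE 0.22, adjusted p 0.0508). Of 10 tested brakes on CDK1, Sfn (14-3-3 sigma, which keeps cyclin B and CDK1 out of the nucleus) rose with ascorbate by 1.43 on the log2 scale (SE 0.31, edgeR adjusted p 0.0448), from 5.73, 5.58 and 5.84 CPM to 16.4 and 14.8 CPM. The other 9 did not pass. Off DOX 0 of the 10 passed, with a median of 0.13 and 3 values below 0. Gadd45g, a stress-induced inhibitor of CDK1, was at 25.2, 27.6 and 26.8 CPM under knockdown, at 64.6 and 48.6 CPM off DOX, at 22.6 and 11.5 CPM with ascorbate and at 9.77 CPM in mouse 12. Both off-DOX mice lay above every other library, at 1.09 (SE 0.26, edgeR adjusted p 0.0542), and Sfn stood at 1.27 (SE 0.31, edgeR adjusted p 0.057). With the length and GC offset the Gadd45g value was 0.55, and the Sfn value off DOX was 0.58 without mouse 23 and 1.74 without mouse 21. The calls of Anapc10, Mis12, Nfyb and Sfn with ascorbate were lost without any one of the 5 ascorbate or knockdown mice, while their log2 values ran from -1.09 to -0.94 for Anapc10, -0.87 to -0.70 for Mis12, -0.75 to -0.68 for Nfyb and were 1.36 or more for Sfn.

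The 40 genes of G1/S and DNA replication gave a second reading of the cell cycle. Off DOX they had a median of -0.36, close to that of the 50 mitotic genes, with 33 of 40 below 0, 0 called in edgeR, 13 lower at an unadjusted p under 0.05 (15.2% of all genes) and 11 called lower by DESeq2 (9.39%). Without mouse 21 edgeR called 15 lower (6.97% of all genes), and without mouse 23 it called 0. With ascorbate their median was -0.04 with 23 of 40 below 0, against -0.33 and 43 of 50 for the mitotic genes, and edgeR called 0 (2 lower and 3 higher unadjusted, beside 12.9% and 10.7% of all genes), DESeq2 2 lower (7.45%) and limma-voom 1 lower (4.66%). In mouse 28 the G1/S genes had a median of -0.07 relative to the knockdown mean and the mitotic genes -0.53, whereas mouse 23 had -0.67 and -0.65. With the length and GC offset the G1/S median was -0.34 off DOX and 0.06 with ascorbate, against -0.26 and -0.13 for the mitotic genes. Without mouse 28 the ascorbate medians of the G1/S and mitotic genes were 0.07 and -0.14, and without mouse 30 they were -0.09 and -0.57. The difference between the gene lists was not tested.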

How the data were processed

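RNA from 8 libraries (3, 2, 2 and 1 per group, each library 1 mouse) was analysed from 2 tables. The authors deposited raw read counts per gene symbol, and FPKM values for the same libraries. STAR, featureCounts and DESeq2 were used with mm10 (GRCm38), per the submitters' processing notes, and versions, settings and strand are not given in the sources used here. Libraries were made from poly(A) RNA enriched with oligo-dT beads, per the labels' protocols. As deposited, 26 symbols had become calendar dates. No column was left without a sample.

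Counts of all genes were tested in R 4.3.3 with edgeR 4.0.16 (glmQLFit with robust estimation and glmQLFTest, TMM factors, filterByExpr with a minimum count of 10), with Benjamini-Hochberg adjustment over all genes tested and a threshold of 0.05. The 7 secondary libraries were fitted in 3 groups, and the primary library was compared in a fit of all 8. Levels in CPM used TMM factors over all 8 libraries. The mice are separate animals, and groups of 2 limit precision. Counts carry no molecular identifiers. DESeq2 1.42.0, limma 3.58.1 (voom with quality weights, and trend on log2(FPKM + 0.1) or log2(FPKM + 1) for genes with an FPKM of at least 1 in 2 libraries), other scalings, no filter, a length and GC offset, other sets of libraries and leaving out each mouse were alternatives. The edgeR fit was run on simulated counts with planted changes and a fixed spread shared by all genes. That run does not cover the spread between these mice or trends with gene length. Shares of all genes called are of the genes tested under the same setting, and for DESeq2 of those with an adjusted p. All 50 symbols were in GENCODE vM21, used for coordinates and GC content, and 15 of them share exonic bases with another gene. Promoters come from RefSeq (GRCm38.p6), 1 entry per gene, and none that overlaps a GENCODE exon is shown.

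The 50 genes and all lists were chosen with earlier results of these data known. Values in every library are given for 30 genes by rule: in each comparison those past the threshold, the 6 with the smallest p and the 3 with the largest change, and Cdk1, Ccnb1, Ccnb2, Ccna2, Plk1, Aurka, Aurkb, Foxm1, Mki67, Top2a, Birc5, Cdc20 and Ube2c. Espl1, the protease that Pttg1 inhibits, was added after its values were seen. Other pathway genes were named among the 2 with the smallest p in each list.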

Additional observations from a re-analysis of the deposited data

How the results depend on the processing

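The 56 gene values with the smallest p or largest change that were followed through the alternatives kept their sign in each of them. Off DOX, the number of the 50 genes called was 0 in the edgeR test with TMM factors, 1 with DESeq2 size factors, 17 without the low-count filter and 12 with DESeq2, and ran from 0 to 15 when each mouse was left out in turn, the highest without mouse 21. The median log2 fold change off DOX ran from -0.64 (without mouse 21) to -0.13 (without mouse 23). With ascorbate, 7 genes were called without the low-count filter (4.08% of all genes lower and 2.51% higher, low-count genes included). DESeq2 called 1 (7.45% and 4.42%), voom 1 (4.66% and 3.67%) and edgeR on the groups compared only 1 (4.22% and 3%). The ascorbate median was -0.13 with the length and GC offset and ran from -0.57 (without mouse 30) to -0.14 (without mouse 28). Off DOX against ascorbate, DESeq2 called 1 gene, higher (2.23% of all genes higher and 1.75% lower). The median of the 50 genes there ran from -0.37 (without mouse 21) to 0.14 (without mouse 30), crossing 0. On library totals it was 0.01 with 22 of 50 values below 0, where the median of all genes was 0.13. The cause of these shifts was not tested. For mouse 12 against knockdown, 0 genes were called under each alternative. Where 1 mouse was left out of an arm of 2, the remaining mouse was assumed to vary like the other groups. Ascorbate calls of Anapc10, Nfyb and Sfn were lost with the length and GC offset (-0.65, -0.46 and 1.11), and that of Sfn on library totals (1.32). No paired analysis was possible because each mouse number belongs to 1 animal and the groups share no number.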
